A study of Mus musculus with 11 samples.

Results

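Penk, Nts, Ccn4, Col24a1 and Sema6d are 5 genes for signalling or matrix proteins that were among the genes high in effector CD4 T cells of the inflamed lacrimal gland. They were chosen by name from earlier results on these same arrays, in which effector and naive cells had been compared. Every probe set that carries 1 of the 5 symbols was taken, which gave 9 probe sets for 5 of the 17097 genes measured. Penk encodes proenkephalin, the precursor of the enkephalin opioid peptides. Nts encodes the precursor of neurotensin and neuromedin N. Ccn4, also called Wisp1, encodes a secreted matricellular protein and is a known target of Wnt signalling. Col24a1 encodes the alpha chain of a fibrillar collagen, and Sema6d encodes a semaphorin. Sema6d is a transmembrane guidance protein rather than a secreted one, so the 5 genes share an extracellular role and not a route of secretion.

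Neuropeptide precursors pass through the secretory pathway, where prohormone convertases and carboxypeptidases cut them into active peptides that act on G protein-coupled receptors. Enkephalin precursor RNA is known from activated T cells, and both effector and regulatory T cells of inflamed tissue are known sources of it. CCN proteins and fibrillar collagens belong to the extracellular matrix that stromal cells usually make, whereas semaphorins bind plexins and neuropilins on neighbouring cells and guide their movement and contacts.

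RNA was measured on 11 microarrays from 16-week-old male mice of the NOD strain, in which the lacrimal gland (LG) becomes inflamed through autoimmunity, a model of Sjögren's syndrome. LG_naive, LG_eTconv and LG_eTreg were CD4 and TCRbeta positive cells sorted alive from gland suspensions, with 3 arrays each. LG_naive cells lacked surface PD1 and ICOS. LG_eTconv, effector conventional cells, and LG_eTreg, effector regulatory cells, were both high for PD1 and ICOS, and the labels give both the same low CD73 and low CD200 gate, so the marker that set them apart is not given in the sources used here. The spleens of these mice gave total CD4 T cells (Spl_CD4) and total CD8 T cells (Spl_CD8), with 1 array each and therefore no replicate check. The labels name no altered gene and no treatment. Whether replicates were separate mice or pools is not in the labels, so p-values reflect the spread among these samples alone, and that spread may be technical.

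Values are RMA signals on a log2 scale (the base is inferred), so a difference of 1 is a 2-fold change. An array's background limit was its highest nonspecific control probe set, and it ran from 0.945 to 1.70 over the arrays. Between 9483 genes (55.5%) and 11211 genes (65.6%) lay above it. Arrays of 1 gland group correlated at 0.980 to 0.991 and arrays of different gland groups at 0.943 to 0.975. The labels were checked on Pdcd1, the gene of PD1, whose mean was 1.83 ± 0.28 in the naive arrays (SD, n = 3 here and below), against 7.23 ± 0.48 in LG_eTconv and 7.46 ± 0.68 in LG_eTreg. Icos averaged 8.64 ± 0.13, 9.70 ± 0.06 and 9.86 ± 0.14 in the same order, so its RNA was also high in the cells sorted as lacking surface ICOS. Foxp3, the lineage factor of regulatory T cells, averaged 3.95 ± 1.04, 4.24 ± 0.62 and 8.18 ± 0.05 in the same order. Cd3e of the T cell receptor complex averaged between 9.44 and 9.66 in the 3 gland groups. Against the low CD200 and CD73 gate, the RNA of Cd200 averaged 5.73, 9.34 and 8.24 and that of Nt5e, the gene of CD73, 4.45, 8.80 and 7.87 in LG_naive, LG_eTconv and LG_eTreg. Limma called both genes higher in each effector subset than in LG_naive, and both lower in LG_eTreg than in LG_eTconv.

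The promoters of Nts and Col24a1 are printed here because these 2 genes shared a pattern that the other members did not have, a signal in LG_eTconv alone. Both are the 250 bases before the annotated start in RefSeq, mouse build GRCm38.p6, read 5′ to 3′ on the strand of the gene. Nts lies on the minus strand at chr10:102490419-102490668 and Col24a1 on the plus strand at chr3:145292222-145292471. Capitals mark matches to TGANTCA, the AP-1 motif, or to TGANNTCA, which includes the cyclic AMP response element TGACGTCA.
Nts: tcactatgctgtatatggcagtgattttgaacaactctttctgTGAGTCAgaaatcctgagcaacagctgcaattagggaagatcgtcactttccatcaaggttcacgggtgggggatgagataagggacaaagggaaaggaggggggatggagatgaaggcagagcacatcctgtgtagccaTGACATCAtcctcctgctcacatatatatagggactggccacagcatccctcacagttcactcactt
Col24a1: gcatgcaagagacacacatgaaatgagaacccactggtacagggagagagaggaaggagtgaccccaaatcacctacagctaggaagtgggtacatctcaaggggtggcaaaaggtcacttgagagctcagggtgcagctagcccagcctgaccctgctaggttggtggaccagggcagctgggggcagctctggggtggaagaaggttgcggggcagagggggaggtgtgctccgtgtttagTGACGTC
In Nts, TGAGTCA lay at positions -207 to -201 and TGACATCA at -67 to -60, counted back from the start. In Col24a1, TGACGTCA lay at -7 to 1, so that its last base is the first base after the printed run. The other member entries in the table were 2 promoters of Sema6d, in which neither motif was found on either strand. Over all 32851 promoter entries, 7.81% held TGANTCA, 14.1% held TGANNTCA and 1.79% held TGACGTCA in the 300 bases from 250 before to 50 after the start. Also searched on both strands were GGAAA, the core of NFAT sites (2 matches in Nts and 1 in 1 of the Sema6d promoters, 61.3% of all entries), CACGTG, an E-box (1 match in the other Sema6d promoter, 7.15%), and TATAAA (no match in the 3 genes, 13.6%). TGANNTCA was searched after the sequences had been read. These matches describe the letters of the reference and say nothing of binding in these cells.

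Penk was high in both effector subsets and near background elsewhere. Its single probe set, 1427038_PM_at, gave 0.80, 0.85 and 1.87 on the 3 LG_naive arrays. The LG_eTconv arrays gave 7.86, 7.77 and 7.47. The LG_eTreg arrays gave 6.86, 6.55 and 6.55. All 6 effector arrays lay far above the 3 naive arrays, of which only the third was above its background limit, and the lowest LG_eTconv array lay 0.61 above the highest LG_eTreg array. Spl_CD4 gave 2.26, above its limit of 1.56, and Spl_CD8 gave 0.63, below its limit of 1.08. The order was therefore LG_eTconv, LG_eTreg, Spl_CD4, LG_naive and Spl_CD8. Spl_CD4 lay above every LG_naive array, whereas the last 2 in the order, both at background apart from the third naive array, could not be ordered. The fitted difference was 6.53 (SE 0.28) between LG_eTconv and LG_naive and 5.48 (SE 0.28) between LG_eTreg and LG_naive. With values below background set to the highest limit, these differences were 5.95 and 4.90. These differences are part of what the gene was chosen for and carry no test.

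Nts was high in LG_eTconv alone. Its probe set 1422860_PM_at gave 6.77, 6.97 and 7.05 on the LG_eTconv arrays. LG_naive gave 0.40, 0.43 and 0.61, and LG_eTreg gave 0.26, 0.81 and 0.31. No array outside LG_eTconv was above its background limit, with Spl_CD4 at 0.77 and Spl_CD8 at 0.54, so these 4 groups have no order among themselves. Nts was at least 45.0-fold higher in LG_eTconv (6.93 ± 0.14) than in LG_naive (0.48 ± 0.11), where the bound sets the bright mean against the background limits of the dim arrays.

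Col24a1 had the same pattern as Nts and varied even less between replicates. Its probe set 1453418_PM_at gave 7.14, 7.07 and 6.98 on the LG_eTconv arrays. The LG_naive arrays gave 0.43, 0.30 and 0.27, and the LG_eTreg arrays gave 0.50, 0.37 and 0.60. Again every array of the other 4 groups was at or below its limit, including Spl_CD4 at 0.60 and Spl_CD8 at 0.34. Col24a1 was at least 49.2-fold higher in LG_eTconv (7.06 ± 0.08) than in LG_naive (0.33 ± 0.09).

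Ccn4 followed Penk. Its brighter probe set, 1448594_PM_at, gave -0.44, 0.00 and 0.15 in LG_naive. LG_eTconv gave 7.67, 7.94 and 7.58, and LG_eTreg gave 6.18, 6.75 and 6.58. The naive arrays were all below their limits, and the effector subsets did not overlap each other, with a gap of 0.83 between them. Spl_CD4 gave 1.57, just above its limit of 1.56, and Spl_CD8 gave -0.44, below its limit. Ccn4 was at least 78.1-fold higher in LG_eTconv (7.73 ± 0.19) and at least 33.3-fold higher in LG_eTreg (6.50 ± 0.29) than in LG_naive (-0.09 ± 0.31).

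Sema6d was the one member with its highest level in LG_eTreg. Its brightest probe set, 1453055_PM_at, gave 6.51, 7.06 and 6.64 in LG_eTreg. The LG_eTconv arrays gave 4.83, 5.26 and 4.96, and the LG_naive arrays 0.55, 1.19 and 1.20. The 3 gland groups did not overlap, and all naive arrays were at or below their limits. Spl_CD4 gave 2.83, between the naive and the effector arrays and above its limit, and Spl_CD8 gave 0.64, below its limit. Sema6d was at least 39.2-fold higher in LG_eTreg (6.74 ± 0.29) and at least 11.9-fold higher in LG_eTconv (5.02 ± 0.22) than in LG_naive (0.98 ± 0.37).

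**Figure D1:**
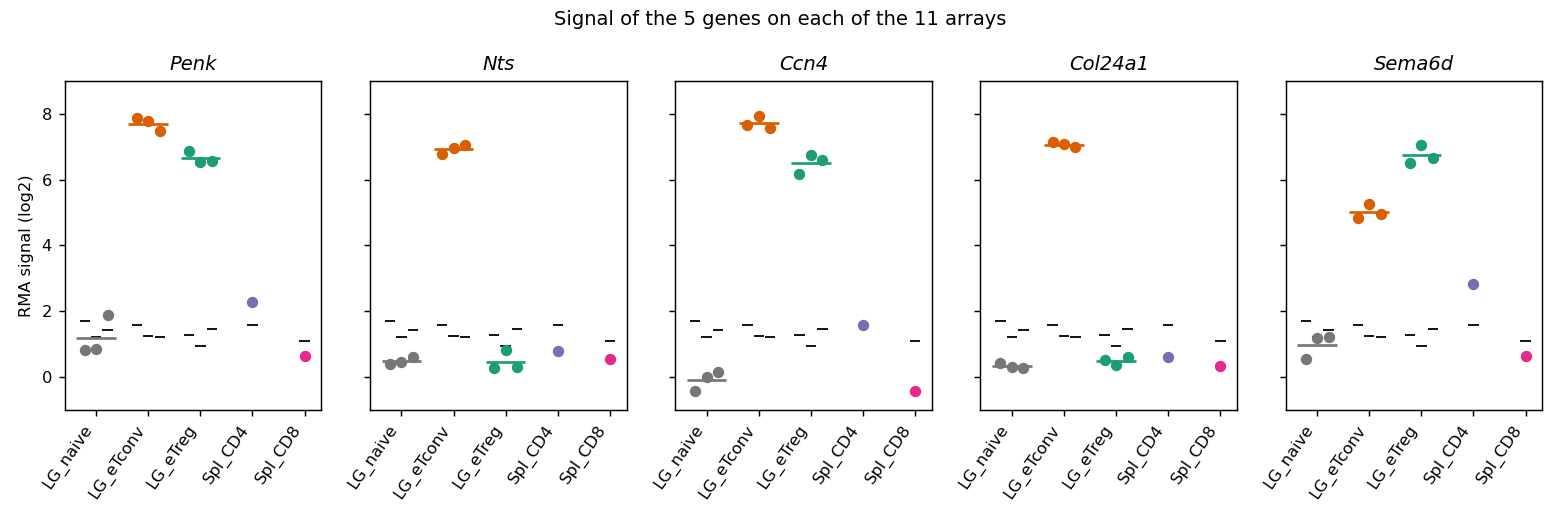
RMA signal (log2) of Penk, Nts, Ccn4, Col24a1 and Sema6d on each of the 11 arrays, by group; points are arrays, coloured lines are group means of the gland groups and short black ticks are each array's background limit. Nts and Col24a1 rise above the ticks in LG_eTconv alone (6.77 to 7.05 and 6.98 to 7.14), whereas Sema6d is highest in LG_eTreg (6.51 to 7.06).

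In LG_eTconv against LG_naive, the groups did not overlap for any of the 5 members, and all 5 were higher; over all genes, 13.8% were higher without overlap and 6.45% were higher at a limma adjusted p under 0.05. In LG_eTreg against LG_naive, 3 of the 5 members were higher without overlap, against 13.3% of all genes, and 6.20% of all genes were called higher. Since the members were picked for effector against naive values, these counts describe the choice. Nts and Col24a1 lay at or below the background limits in both LG_eTreg and LG_naive. In bulk samples such as these, fewer cells of a type and less RNA per cell cannot be told apart.

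Limma called 4 of the 5 genes between the effector subsets, a comparison that was known when the genes were chosen. For Nts and Col24a1, LG_eTreg and LG_naive both lay at or below the limit, so the difference largely repeats that between LG_eTconv and LG_naive. Nts fell by 6.47 (SE 0.16) on the log2 scale in LG_eTreg against LG_eTconv, at least 52.4-fold (limma adjusted p = 3.78e-07). Col24a1 fell by 6.57 (SE 0.10), at least 57.4-fold (limma adjusted p = 3.40e-08). Ccn4 fell by 1.23 (SE 0.20), 2.34-fold, with a limma adjusted p of 0.00888, and was lower in 3 of 3 LG_eTreg arrays than in any LG_eTconv array. Sema6d went the other way and was 1.72 (SE 0.22) higher in LG_eTreg, 3.29-fold, with a limma adjusted p of 0.00258 and no overlap between the groups. Penk differed by -1.05 (SE 0.28), 2.06-fold, with a limma adjusted p of 0.0739, which missed the threshold of 0.05. Its pooled spread took in the naive arrays, where the third stood apart from the other two. Without that array the adjusted p of Penk was 0.00690, and over all alternatives it ran from 0.00690 to 0.211.

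Of the 5 members, 3 were thus called lower in LG_eTreg than in LG_eTconv and 1 was called higher, where 2.76% of all genes were called lower and 2.94% higher. The groups did not overlap for 4 members on the lower side and for 1 on the higher side, against 9.63% and 11.8% of all genes. This comparison was known when the members were chosen, and it shares its effector arrays with the comparisons against LG_naive. The counts and the members' adjusted p-values are therefore no independent evidence of a difference or of its direction.

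**Figure D2:**
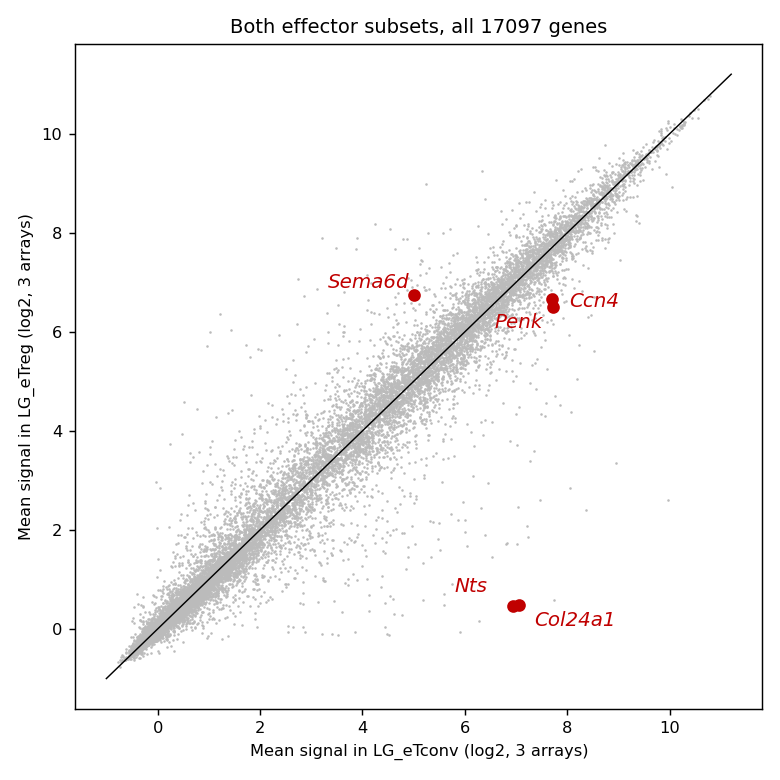
Mean RMA signal (log2, 3 arrays each) in LG_eTconv on the horizontal axis and LG_eTreg on the vertical axis for all 17097 genes (grey) and the 5 members (red); the line marks equal means. Nts and Col24a1 lie near the bottom right (6.93 and 0.46, 7.06 and 0.49), Penk and Ccn4 just below the line, and Sema6d above it.

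Few genes shared the on and off patterns of these members. A signal above the background limit on all 3 LG_eTconv arrays and on no LG_naive or LG_eTreg array was found for 37 genes (0.216% of genes), Nts and Col24a1 among them, and 32 of the 37 were also at or below the limit on both spleen arrays. The reverse, above the limit in LG_eTreg alone, was found for 19 genes (0.111%) and for no member. Ccn4 and Sema6d belonged to the 75 genes (0.439%) that were above the limit on all arrays of both effector subsets and on no LG_naive array. Penk was outside this class through the third LG_naive array.

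Cd8a moved with the genes of LG_eTconv. It averaged 4.92 ± 0.36 in LG_naive, 6.48 ± 0.34 in LG_eTconv and 5.17 ± 0.05 in LG_eTreg, and gave 9.35 on Spl_CD8. Nts and Col24a1, the members with a signal in LG_eTconv alone, were at or below the background limit on Spl_CD8, where Cd8a was highest. The same held there for the probe sets that stand for Penk, Ccn4 and Sema6d. Spl_CD8 is 1 array of total CD8 T cells of the spleen. The part of gland CD8 cells in the LG_eTconv levels was not tested.

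Markers of the cells that usually make collagen, CCN proteins or neuropeptides were measured beside the members. Of 10 fibroblast markers, limma called 0 in each of the 3 gland comparisons (2, 2 and 1 at an unadjusted p under 0.05). Of these 10, between 3 and 7 lay above the background limit on an LG_naive array, 3 to 4 on an LG_eTconv array and 3 to 5 on an LG_eTreg array, and Col1a2 and Pdgfra were at or below it on all arrays. Summed on the linear scale without Thy1, which T cells also express, the fibroblast markers ran from 4.96 to 5.62 in LG_naive, 4.82 to 5.01 in LG_eTconv and 4.83 to 4.99 in LG_eTreg (log2 of the sum). Of 10 neuron and glia markers, limma called 0 in each (0, 1 and 1 at an unadjusted p under 0.05), and 7 were at or below the limit on all arrays of LG_eTconv, Snap25, Tubb3, Uchl1 and Prph among them. Their sum ran from 4.11 to 4.16 in LG_naive, 4.05 to 4.37 in LG_eTconv and 4.21 to 5.04 in LG_eTreg. Beside the 0 calls in both marker lists, 6.45% and 7.02% of all genes were called higher and lower in LG_eTconv against LG_naive. The shares were 6.20% and 5.47% in LG_eTreg against LG_naive and 2.94% and 2.76% in LG_eTreg against LG_eTconv. The part of fibroblasts, neurons and glia in the members' levels was not tested.

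The other probe sets of Ccn4 and Sema6d did not all show what the brightest ones showed. For Ccn4, 1448593_PM_at gave 0.80, 0.68 and 0.64 in LG_naive, 4.17, 5.28 and 5.66 in LG_eTconv and 2.96, 3.81 and 3.12 in LG_eTreg. Both probe sets of Ccn4 thus kept the effector subsets apart with LG_eTconv higher, and the second was 1.74 (SE 0.37) lower in LG_eTreg, with a limma adjusted p of 0.0459 over all probe sets. For Sema6d, 1446536_PM_at reached 0.43, 0.04 and 1.61 in LG_eTconv and 0.58, 1.81 and 2.02 in LG_eTreg, and the groups overlapped. The third, 1448060_PM_at, ran from 0.89 to 1.30 in LG_eTconv and from 1.05 to 1.66 in LG_eTreg, also with overlap. The fourth, 1459318_PM_at, was at or below the limit on all 11 arrays. In LG_eTreg against LG_eTconv these 3 probe sets differed by 0.78 (limma adjusted p = 0.576), 0.34 (0.482) and -0.01 (0.978), so the call for Sema6d rests on 1 of its 4 probe sets.

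**Figure D3:**
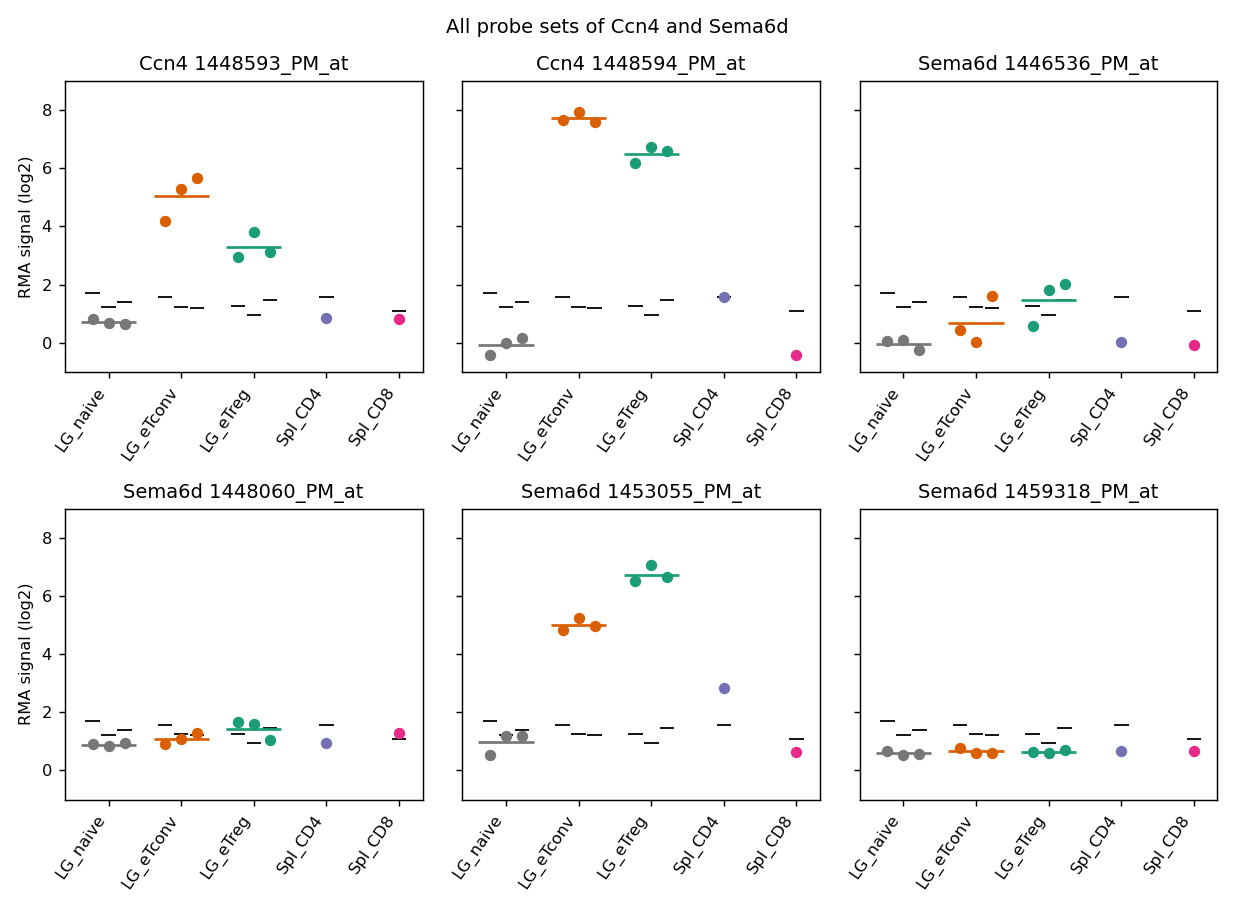
RMA signal (log2) of both probe sets of Ccn4 and all 4 of Sema6d by group; points are arrays, coloured lines are means of the gland groups and black ticks are background limits. Both Ccn4 probe sets separate the 3 gland groups, whereas 1 of the 4 Sema6d probe sets, 1453055_PM_at, stands clear of the limits on all effector arrays.

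Within the group, Nts and Col24a1 were the most alike over the 9 gland arrays (Pearson r = 0.997), followed by Penk and Ccn4 (0.994). Sema6d correlated with Ccn4 at 0.903 and with Penk at 0.895, but with Nts at 0.226 and with Col24a1 at 0.243. The remaining pairs lay between 0.617 and 0.635. These values are descriptions over 9 arrays in 3 groups, so they follow the group means above all.

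Among 10475 genes above the limit on at least 3 gland arrays, the 5 most like Penk by the same measure were Gdpd5 (r = 0.998), Nrn1, Tiam1, Spry1 and Raph1 (0.994). Nrn1, the secreted neuritin, averaged 3.90, 9.36 and 8.35 in LG_naive, LG_eTconv and LG_eTreg, and Spry1, an inhibitor of receptor signalling, averaged 2.52, 8.10 and 7.07. The 5 most like Ccn4 were Tiam1 (0.997), Ptger2, Etv5, Gpm6b and Nt5e (0.995). Ptger2, a prostaglandin E receptor, averaged 2.46, 8.44 and 7.65. Nt5e encodes CD73, a protein of the sort gate, and averaged 4.45, 8.80 and 7.87, so its RNA was higher in the subsets sorted as CD73 low than in LG_naive.

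Nts and Col24a1 had 3 of their 5 most alike genes in common, Gucy2g, Rph3a and Twist2, with r from 0.994 to 0.999. Rph3a, a rabphilin of vesicle traffic, averaged 0.26, 6.28 and 0.16 in LG_naive, LG_eTconv and LG_eTreg, and Twist2, a transcription factor, averaged -0.02, 5.91 and -0.05. The others were Slamf6 and Lpar3 for Nts and Kcnc2 and Slc17a6 for Col24a1. Slamf6, a lymphocyte surface receptor, differed from the rest in being well above background in all groups, at 6.35, 8.46 and 6.33. The genes most like Sema6d were Phlpp1 (0.996), Tnfrsf1b, Cdc14a, Cass4 and Osbpl3 (0.989). Tnfrsf1b, the second TNF receptor, averaged 5.77, 7.45 and 8.24, and Cass4, an adhesion scaffold protein, averaged 1.78, 4.88 and 6.84.

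**Figure D4:**
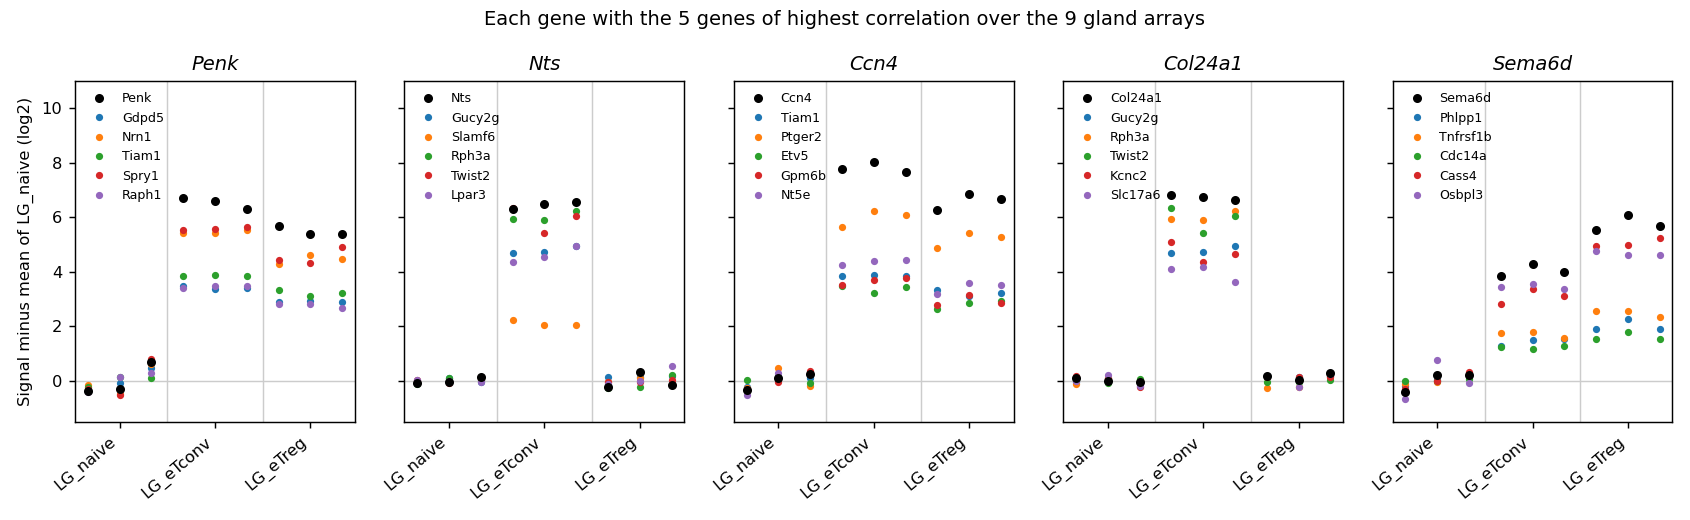
Signal minus the LG_naive mean (log2) on the 9 gland arrays for each member (black) and the 5 genes with the highest Pearson correlation to it (colours); each point is 1 array, and vertical lines separate the groups. The genes around Nts and Col24a1 leave 0 in LG_eTconv alone, and those around Sema6d stand highest in LG_eTreg.

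Other neuropeptide precursors did not follow Penk and Nts. Of 15 others measured, 8 were at or below the background limit on all gland arrays, and Pdyn, Pomc and Pnoc, the other opioid precursor genes, averaged between 1.23 and 1.62 in the gland groups with no call. In LG_eTconv against LG_naive limma called 0 of the 15 higher (1 at an unadjusted p under 0.05) and 2 lower. Of all genes, 6.45% were called higher and 7.02% lower there. Nmb, the precursor of neuromedin B, fell by 1.29 (SE 0.24) in LG_eTconv (limma adjusted p = 0.00761) and was 1.63 (SE 0.24) higher in LG_eTreg than in LG_eTconv (limma adjusted p = 0.00464), the opposite order to Nts. The second, Nmu, lay at or below the limit in all gland groups. In LG_eTreg against LG_naive, Nmu alone was called, among the 5.47% of all genes called lower. The list's median difference was -0.05 in LG_eTconv against LG_naive and -0.11 in LG_eTreg against LG_naive, beside -0.03 and -0.02 over all genes.

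Of 16 measured genes that cut, amidate or store peptides, 1 was called higher and 2 lower in LG_eTconv against LG_naive, where 6.45% and 7.02% of all genes were. In LG_eTreg against LG_naive the counts were 2 and 2 (6.20% and 5.47% of all genes), and in LG_eTreg against LG_eTconv 1 and 1 (2.94% and 2.76%). Scg5, the 7B2 chaperone of a prohormone convertase, averaged 5.75 ± 0.14 in LG_naive and 2.19 ± 0.53 in LG_eTreg, and LG_eTconv differed from LG_naive by 0.25 (SE 0.25). Scg5 fell by 3.80 (SE 0.25) in LG_eTreg against LG_eTconv (limma adjusted p = 5.53e-05) and by 3.56 (SE 0.25) against LG_naive (limma adjusted p = 4.83e-05). Unlike Nts, it was above the limit on all LG_naive arrays. Cpd, a carboxypeptidase, was 1.80 (SE 0.34) higher in LG_eTreg than in LG_naive (limma adjusted p = 0.0104). In LG_eTconv it was 0.81 higher without a call, and the effector subsets were not called apart (limma adjusted p = 0.179). Its other probe sets above the limit on at least 8 gland arrays rose by 1.62 and 1.59 in LG_eTconv and by 2.22 and 2.12 in LG_eTreg. Ctsl, a cathepsin able to cleave proenkephalin, fell by 3.38 (SE 0.44) in LG_eTconv and fell by 3.19 (SE 0.44) in LG_eTreg against LG_naive (limma adjusted p = 0.00115 and 0.00182). Pam, the amidating enzyme, fell by 0.79 in LG_eTconv, with a limma adjusted p of 0.0429 that was lost under 11 of 19 alternatives. Named after their values were seen, the remaining calls were Pcsk1 (0.64 higher in LG_eTconv, on 1 array above the limit) and Furin (0.39 higher in LG_eTreg than in LG_naive and 0.43 higher than in LG_eTconv). The call for Pcsk1 was lost under 11 of 18 alternatives and those for Furin under 7 and 10 of 19.

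Of 7 peptide degrading enzymes, Ece1, the endothelin converting enzyme, was the 1 called. It was called higher in LG_eTconv than in LG_naive, as were 6.45% of all genes, and lower in LG_eTreg than in LG_eTconv, as were 2.76%. It averaged 5.91 ± 0.23 in LG_naive, 7.35 ± 0.10 in LG_eTconv and 5.98 ± 0.19 in LG_eTreg, so it rose by 1.45 (SE 0.15) in LG_eTconv (limma adjusted p = 0.000325) and fell by 1.38 in LG_eTreg against LG_eTconv (limma adjusted p = 0.000974). Its second probe set was 1.48 higher in LG_eTreg than in LG_naive, so the like level of those groups rests on 1 of 2 probe sets. Receptors for the peptides were scarce: of 7 opioid and neurotensin receptor genes measured, Oprm1, Oprk1, Oprl1, Ntsr1 and Ntsr2 (5 in all) were at or below the limit on all gland arrays. Oprd1, the delta opioid receptor, was above the limit on 1 LG_eTreg array, at a group mean of 0.82. Sort1, the sorting receptor sortilin that also binds neurotensin, averaged 4.22 ± 0.93 in LG_naive, 2.62 ± 0.41 in LG_eTconv and 2.40 ± 0.18 in LG_eTreg. It was called lower in both effector subsets (limma adjusted p = 0.0390 and 0.0258), calls that were lost under 10 and 6 of 19 alternatives. Of all genes, 7.02% were called lower in LG_eTconv and 5.47% in LG_eTreg. The other probe sets of Sort1 fell by 0.30 and 0.47 in LG_eTconv and by 0.72 and 0.45 in LG_eTreg, the second of them above the limit on 1 gland array.

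Other CCN genes did not share the levels of Ccn4. Of the 5 others, limma called 0 in each of the 3 comparisons. Of all genes, 6.45% were called higher and 7.02% lower in LG_eTconv against LG_naive, and 6.20% and 5.47% in LG_eTreg against LG_naive. Between the effector subsets these shares were 2.94% and 2.76%, so 0 calls among 5 genes say little. At an unadjusted p under 0.05, 0, 1 and 1 were lower and 0 higher, and over the alternatives 0 or 1 were called. Ccn3, Ccn5 and Ccn6 were at or below the limit on all gland arrays. Ccn1 averaged 3.18 ± 0.59, 2.90 ± 0.53 and 1.43 ± 0.93 in LG_naive, LG_eTconv and LG_eTreg, and Ccn2 averaged 2.06 ± 0.75, 1.12 ± 0.76 and 1.72 ± 0.23. Of 15 Wnt target and antagonist genes, 2 were called higher and 3 lower in LG_eTconv against LG_naive, beside 6.45% and 7.02% of all genes. The counts were 2 and 2 in LG_eTreg against LG_naive (6.20% and 5.47% of all genes) and 1 and 2 in LG_eTreg against LG_eTconv (2.94% and 2.76%). Sostdc1, which is secreted and blocks BMP and Wnt ligands, averaged 0.99 ± 0.22 in LG_naive, 8.95 ± 0.19 in LG_eTconv and 3.35 ± 0.42 in LG_eTreg. It was at least 182-fold higher in LG_eTconv than in LG_naive (limma adjusted p = 4.18e-07) and fell by 5.60 (SE 0.22) in LG_eTreg against LG_eTconv. Its second probe set gave 0.07 where the first gave 2.36 in LG_eTreg against LG_naive, so the smaller rise in that subset rests on 1 probe set.

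Rnf43 and Znrf3 are ubiquitin ligases that remove Wnt receptors from the surface, and they moved apart. Rnf43 rose by 2.32 (SE 0.25) in LG_eTconv and by 1.57 (SE 0.25) in LG_eTreg over LG_naive (limma adjusted p = 0.000379 and 0.00401). Znrf3 fell by 2.91 (SE 0.18) in LG_eTconv against LG_naive (limma adjusted p = 1.62e-05) and was 2.44 (SE 0.18) higher in LG_eTreg than in LG_eTconv. Lef1, a transcription factor of the Wnt pathway, averaged 4.08 ± 0.45 in LG_naive and was at or below the limit on all LG_eTconv arrays, at least 6.67-fold lower (limma adjusted p = 9.25e-05). Lef1 was lower in LG_eTreg as well, with a difference from LG_naive of -3.27 (SE 0.29, limma adjusted p = 0.000162). The effector subsets differed by 0.24 for this gene (limma adjusted p = 0.803). Axin2, a Wnt feedback gene, and Sfrp2, a secreted antagonist, filled the remaining calls and were named after their values were seen. Axin2 fell by 0.98 (SE 0.13) in LG_eTreg against LG_eTconv (limma adjusted p = 0.00338), the same direction as Ccn4 and Sostdc1. Against LG_naive, Axin2 differed by -0.89 in LG_eTreg (limma adjusted p = 0.00313) and by 0.09 in LG_eTconv. Ccn4 and the brighter probe set of Sostdc1 were higher than LG_naive in both subsets. Sfrp2 fell by 2.03 (SE 0.55) in LG_eTconv against LG_naive (limma adjusted p = 0.0446), a call lost under 9 of 19 alternatives.

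Other fibrillar collagens were low as well. Of 10 other chain genes, limma called 0 in each of the 3 comparisons. Of all genes, 6.45% were called higher and 7.02% lower in LG_eTconv against LG_naive, and 6.20% and 5.47% in LG_eTreg against LG_naive. Between the effector subsets these shares were 2.94% and 2.76%, so 0 calls among 10 genes say little. At an unadjusted p under 0.05, 3, 2 and 1 differed, and over the alternatives 0 to 2 were called. Of these chains, 5 were at or below the limit on all gland arrays. Col3a1 averaged 2.93 ± 1.44 in LG_naive, 1.10 ± 0.55 in LG_eTconv and 0.94 ± 0.21 in LG_eTreg. Col27a1, the closest relative of Col24a1 by family, averaged 1.45 ± 0.20, 2.04 ± 0.38 and 1.05 ± 0.45, with a limma adjusted p of 0.0736 between the effector subsets.

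Of 14 genes of collagen biosynthesis, 1 was called higher and 1 lower in LG_eTconv against LG_naive (6.45% and 7.02% of all genes). The counts were 1 and 2 in LG_eTreg against LG_naive (6.20% and 5.47%) and 0 and 1 in LG_eTreg against LG_eTconv (2.94% and 2.76%). The gene called higher was Plod2, a lysyl hydroxylase. It averaged 0.86 ± 0.50 in LG_naive, 3.43 ± 0.22 in LG_eTconv and 2.20 ± 0.23 in LG_eTreg, at least 3.97-fold higher in LG_eTconv than in LG_naive (limma adjusted p = 0.000217). Its fall of 1.23 in LG_eTreg against LG_eTconv had a limma adjusted p of 0.0243, which was lost under 6 of 19 alternatives. P4ha2, a prolyl hydroxylase, was called lower in both effector subsets, where it was below the limit. Its calls were lost under 5 and 4 of 18 alternatives in LG_eTconv and LG_eTreg, with the opposite sign under 1 in each. Colgalt1, a collagen galactosyltransferase, fell by 0.75 (SE 0.15) in LG_eTreg against LG_naive (limma adjusted p = 0.0147).

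Of 8 collagen receptor genes, 1 was called higher and 2 lower in LG_eTconv against LG_naive (6.45% and 7.02% of all genes). The counts were 1 and 1 in LG_eTreg against LG_naive (6.20% and 5.47%) and 0 and 1 in LG_eTreg against LG_eTconv (2.94% and 2.76%). Itgb1, the shared beta chain of the collagen-binding integrins, rose by 2.25 (SE 0.23) in LG_eTconv and by 1.21 (SE 0.23) in LG_eTreg over LG_naive (limma adjusted p = 0.000279 and 0.00965). Lair1, an inhibitory collagen receptor, averaged 7.11 ± 0.18 in LG_naive, 2.02 ± 0.26 in LG_eTconv and 1.99 ± 0.71 in LG_eTreg, and fell in both comparisons with LG_naive (limma adjusted p = 1.99e-05 and 2.80e-05). Ddr1, a collagen-activated kinase, fell by 1.17 (SE 0.22) in LG_eTconv against LG_naive (limma adjusted p = 0.00852).

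Of 19 semaphorins other than Sema6d, 8 were at or below the limit on all gland arrays. In LG_eTconv against LG_naive 1 was called higher and 3 lower, beside 6.45% and 7.02% of all genes. In LG_eTreg against LG_naive the counts were again 1 and 3 (6.20% and 5.47% of all genes), and in LG_eTreg against LG_eTconv 1 and 2 (2.94% and 2.76%). Within class 6, Sema6a was at or below the limit in all gland groups, and Sema6b and Sema6c averaged between 1.37 and 1.72 with no call. Sema4c averaged 2.88 ± 0.31 in LG_naive, 5.81 ± 0.11 in LG_eTconv and 4.26 ± 0.27 in LG_eTreg. It rose by 2.93 (SE 0.19) in LG_eTconv (limma adjusted p = 2.08e-05) and fell by 1.55 (SE 0.19) in LG_eTreg against LG_eTconv (limma adjusted p = 0.00168), the reverse of the order of Sema6d. Sema4a fell by 3.18 (SE 0.20) in LG_eTconv and fell by 2.90 (SE 0.20) in LG_eTreg against LG_naive (limma adjusted p = 1.96e-05 and 4.61e-05).

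Sema4f averaged 4.73 ± 0.16, 4.56 ± 0.07 and 3.04 ± 0.34 in LG_naive, LG_eTconv and LG_eTreg and fell by 1.52 (SE 0.17) between the effector subsets (limma adjusted p = 0.00121). Sema3d was called lower in both effector subsets but lay at or below the limit in every gland group. Sema4d, known as CD100 and named after its values were seen, fell by 0.44 in LG_eTconv against LG_naive and was 0.60 higher in LG_eTreg than in LG_eTconv (limma adjusted p = 0.0476 and 0.0221). Those calls for Sema4d were lost under 10 and 5 of 19 alternatives.

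Among 16 semaphorin receptor genes, 2 were called higher and 3 lower in each effector subset against LG_naive, beside 6.45% and 7.02% of all genes in LG_eTconv and 6.20% and 5.47% in LG_eTreg. In LG_eTreg against LG_eTconv 1 was called higher, beside 2.94% of all genes. Plxna1, a plexin known to bind Sema6d, averaged 4.03 ± 0.38 in LG_naive, 2.53 ± 0.50 in LG_eTconv and 3.44 ± 0.44 in LG_eTreg. Its fall in LG_eTconv, 2.84-fold (limma adjusted p = 0.0145), was not shared by its second probe set, which gave a log2 difference of 0.28. Plxna4, another plexin known to bind Sema6d, was at or below the limit in all gland groups. Nrp1, a neuropilin, rose by 2.55 (SE 0.14) in LG_eTconv and by 2.22 (SE 0.14) in LG_eTreg over LG_naive (limma adjusted p = 9.70e-06 and 2.83e-05).

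Plxnd1 averaged 1.23 ± 0.20, 1.43 ± 0.13 and 2.73 ± 0.28 in LG_naive, LG_eTconv and LG_eTreg, was 1.29 (SE 0.17) higher in LG_eTreg than in LG_eTconv (limma adjusted p = 0.00262), and so had its highest level where Sema6d had. Tyrobp, an adaptor of plexin and myeloid receptors, fell by 3.58 (SE 0.18) in LG_eTconv and fell by 3.75 (SE 0.18) in LG_eTreg against LG_naive (limma adjusted p = 6.11e-06 and 6.48e-06). Named after their values were seen, Plxnb1 was the other gene called higher in LG_eTconv (1.38, SE 0.35), a call lost under 7 of 19 alternatives. Plxnb2 was called lower in both effector subsets (-1.42 and -1.38), where it lay at or below the limit. Kdr, a known co-receptor for Sema6d, was called lower in LG_eTreg (-0.94, SE 0.16), where it lay at or below the limit on all arrays. Each of these 3 calls was lost under 1 of 19 alternatives, in which values below background were set to the highest limit.

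Summed markers of monocytes and macrophages, epithelium and endothelium fell from LG_naive to both effector subsets beside several of these falls. For the B cell markers the LG_eTconv arrays overlapped LG_naive, and the LG_eTreg arrays were lower. Of 8 monocyte and macrophage markers, Tyrobp among them, 6 were called lower in each effector subset than in LG_naive. Of all genes, 7.02% were called lower in LG_eTconv and 5.47% in LG_eTreg. The sum of these markers ran from 8.77 to 9.33 in LG_naive, 6.67 to 7.05 in LG_eTconv and 6.83 to 6.95 in LG_eTreg. Csf1r and Itgam of this list were at or below the limit in all gland groups. The 10 epithelial markers summed to 8.54 to 9.76, 6.57 to 7.24 and 7.49 to 8.36, the 7 endothelial markers, Kdr among them, to 5.56 to 5.97, 4.54 to 4.59 and 3.61 to 3.98, and the 4 B cell markers to 5.22 to 5.49, 4.89 to 5.24 and 4.03 to 4.26. In the same order of lists, 4, 2 and 0 were called lower in LG_eTconv than in LG_naive, and 2, 3 and 3 in LG_eTreg. In LG_eTreg against LG_eTconv, 2 epithelial markers and 1 monocyte and macrophage marker were called higher and 1 endothelial marker lower (2.94% and 2.76% of all genes). The part of these cells in the falls of Ctsl, Lair1, Sema4a, Ddr1, Sort1, Sfrp2 and Tyrobp was not tested.

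**Figure D5:**
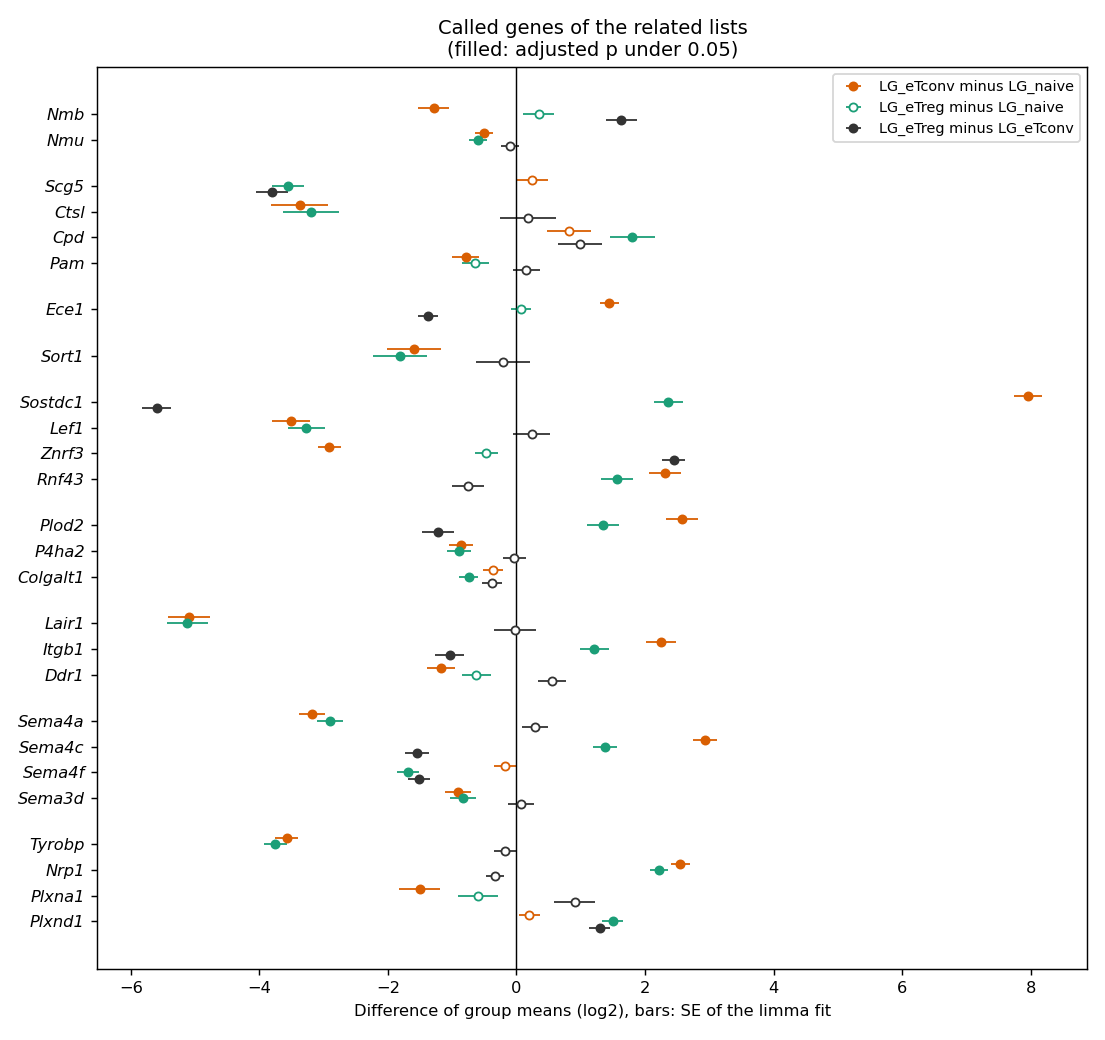
Difference of group means (log2, horizontal axis) with the SE of the limma fit (bars) for the called genes of the related lists that the naming rule picked, in the 3 gland comparisons (colours); filled points have an adjusted p under 0.05. Sostdc1 rises most in LG_eTconv (7.96), Lair1 falls most in both effector subsets (-5.09 and -5.12), and Scg5, Ece1, Sostdc1 and Sema4c are lower in LG_eTreg than in LG_eTconv.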

How the data were processed

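The 5 genes and the gene lists were chosen with earlier results of these data known. The authors deposited log2 signals. Per the submitters' processing notes, RMA and Partek were used, and no version is named; that the logarithm has base 2 is inferred from RMA. Of 45141 probe sets in the table, 104 controls were dropped. Genes were named through the platform annotation: 28898 probe sets had 1 symbol, 551 several and 15588 none. Each gene was represented by its brightest probe set, by mean over the 9 gland arrays (17097 genes, 7180 with several probe sets), and no filter on dim genes was used. All probe sets of the members are described.

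Differences were fitted with limma 3.58.1 in R 4.3.3 as 1 mean per group over the 9 gland arrays (6 residual degrees of freedom) with empirical Bayes, two-sided. P-values were adjusted by Benjamini-Hochberg within a comparison, over all 17097 genes, and called under 0.05. Where a group was at or below the background limit on all its arrays, the bound "at least N-fold" used, per array, the higher of that limit and the gene's own value. The method was tested on simulated data. Lists are given as counts and medians, with no set test. The naming rule took the members, up to 4 called genes of each list with the largest difference, and the 5 genes of highest correlation to each member. Named outside this rule were checks of the labels such as Foxp3 and Cd8a, and genes of the marker lists. List genes without a call, such as Ccn1, Col27a1, Oprd1 and Plxna4, were also outside it, as were the genes named after their values were seen. The 19 alternatives were another summary of probe sets, a filter or floor at background, 2 other normalizations, array weights, a trended prior, all 11 arrays, a replicate block, and each gland array left out. Promoters came from RefSeq (GRCm38.p6): 3 of the 5 genes matched, with 4 entries. Array signals give no counts, so the number of arrays limits the precision.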

Additional observations from a re-analysis of the deposited data

How the results depend on the processing

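Nts, Col24a1, Ccn4 and Sema6d kept their direction and their call between the effector subsets under all 19 alternatives. Penk kept its direction, at -1.05 in LG_eTreg against LG_eTconv, and was called with values below background set to the highest limit (limma adjusted p = 0.00826) and without the third LG_naive array (0.00690). With 1 array left out at a time its difference ran from -1.16 to -0.965. With values below background set to the highest limit, the differences from LG_naive were 5.23 for Nts, 6.03 for Ccn4, 5.37 for Col24a1 and 3.32 for Sema6d in LG_eTconv, and 4.80 for Ccn4, 0 for Col24a1 and 5.04 for Sema6d in LG_eTreg, since the setting raises the naive values. With the mean of all probe sets, which takes in dim ones, they were 6.07 and 4.59 for Ccn4 and 1.26 and 1.96 for Sema6d. With all probe sets tested one by one, more features entered, and the counts called higher and lower were 2047 and 2056 in LG_eTconv against LG_naive, 1843 and 1581 in LG_eTreg against LG_naive, and 788 and 769 between the effector subsets. With 1 array left out, the count called higher in LG_eTreg than in LG_eTconv ran from 330 (without the second LG_eTconv array) to 506, beside 502. Of the counts of related lists under the alternatives, 98 moved by over 1.5 times and 529 did not.

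The labels do not say that replicate numbers pair the samples. Deviations of same-numbered arrays correlated at -0.10 to 0.28, and 3 of 9 arrays correlated best with their own number in both other groups, so no pairing was used. With the number as a replicate block, 455 genes were called higher and 451 lower in LG_eTreg than in LG_eTconv, the limma adjusted p was 0.132 for Penk, 0.00738 for Ccn4 and 0.00129 for Sema6d, and no call of a member changed.

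The main limits are 3 arrays per gland group, 1 array per spleen group, and a background limit below which values have no order. The call for Sema6d rests on 1 of 4 probe sets. The logarithm's base 2 is inferred. The labels give an RNA integrity number below the rest for 1 sample that they do not tie to a group.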
